A study of Mus musculus with 6 samples.

Results

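P2 receptors are the cell surface receptors for extracellular nucleotides, and 10 of their genes are described here in cultured mouse osteoblasts: *P2ry1*, *P2ry2*, *P2ry4*, *P2ry6*, *P2ry12*, *P2ry13*, *P2ry14*, *P2rx4*, *P2rx5* and *P2rx7*. They were listed by name and not by a cutoff on their values, but earlier results of these data were known when the list was made. Every array probe whose RefSeq transcript belongs to one of these genes was taken. This gave 12 probes, 3 of them for *P2rx7* and 1 for each of the other genes, out of 39429 probes and 20659 named genes on the array. Of the 10 receptors, 8 were well above background on all 6 arrays, *P2ry1* on 5 arrays and *P2ry4* on 3 arrays. All 10 passed the filter for testing, which asked for a signal well above background on at least 2 arrays.

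P2 receptors fall into the P2Y receptors, which act through G proteins, and the P2X receptors, which are ion channels opened by ATP. Cells release ATP and UTP through channels, transporters and damage. Ectonucleotidases at the cell surface break nucleotides down to diphosphates, monophosphates and, from ATP, adenosine. Osteoblasts answer to nucleotides through P2Y and P2X receptors, and *P2ry6*, *P2ry12*, *P2ry13*, *P2ry14*, *P2rx4* and *P2rx7* are also well known from macrophages and their relatives.

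Osteoblasts were prepared from the calvaria (skull cap) of CD1 mice that were 2 to 5 days old. The undifferentiated group was grown to confluence, the differentiated group was then kept in differentiation medium for 30 days, and the cabozantinib group was kept for 30 days in that medium with cabozantinib (XL184), an inhibitor of MET, VEGF receptors and other kinases. The array methods of the study give the same time, while its results text names an earlier day. Each group had 2 cultures and 1 array per culture. Nothing in the labels says that replicate cultures came from separate mice, so that p values measure the spread between these samples, which may be technical.

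RNA was hybridized to 1-color Agilent whole mouse genome arrays. A level below is the log2 of the background-subtracted signal of a probe minus the 75th percentile of its array on the same scale, so that 0 marks the 75th percentile of that array. Levels of different probes are not comparable with each other. The 75th percentile lay between 678 and 1974 signal units, and 58.8% to 72.9% of the spots were well above background. By the scan date in the file headers, the undifferentiated and the differentiated arrays were scanned together and the cabozantinib arrays apart, possibly on another slide. Scan, slide and cabozantinib therefore cannot be told apart. Differences were tested with limma across 23054 genes, where a probe without a gene name counted under its own transcript, and a receptor was called changed at an adjusted p under 0.05. The median gene differed by 0.10 between differentiated and undifferentiated osteoblasts and by -0.29 between cabozantinib-treated and control differentiated osteoblasts. The latter shift was -0.08 after quantile normalization.

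The question of the first comparison was which receptors differ after osteoblasts have been kept in differentiation medium. Of the 10 receptors, 6 rose with differentiation and none fell: *P2ry1*, *P2ry6*, *P2ry12*, *P2ry13*, *P2ry14* and *P2rx7*. Among all genes tested, 5.02% rose and 4.33% fell. *P2ry12* differed by 10.7-fold, *P2ry13* by 9.78-fold, *P2ry6* by 7.47-fold, *P2rx7* by 6.83-fold and *P2ry14* by 4.75-fold, and *P2ry1*, which was well above background on 1 undifferentiated array only, has no firm fold. The differentiated arrays lay above both undifferentiated arrays for 8 of the 10 receptors, against 25% of all genes. The median difference over the 10 receptors was 2.51 on the log2 scale, beside 0.10 for all genes.

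**Figure D1:**
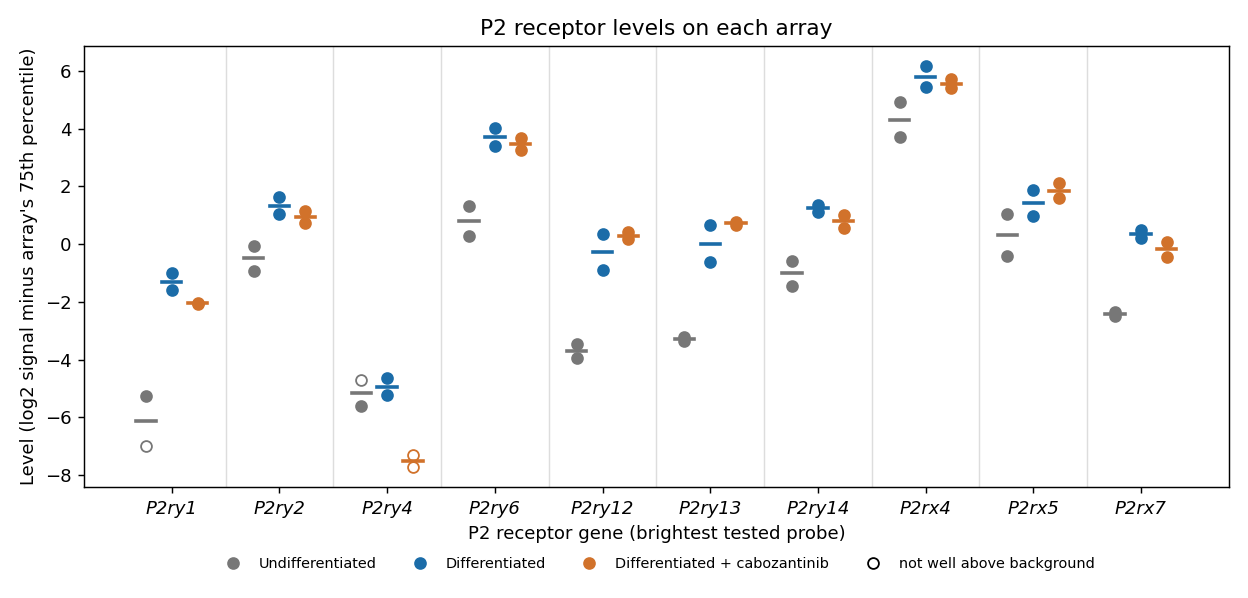
Level of each P2 receptor gene on the 6 arrays, as log2 signal minus the 75th percentile of the array (y axis), with 1 point per array, a line at the group mean and open points where the probe was not well above background. Levels are to be compared within a receptor only: both undifferentiated arrays lie below the 4 other arrays for 8 receptors, *P2ry4* lies lowest on the cabozantinib arrays and *P2rx5* overlaps.

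Among the receptors that couple mainly to phospholipase C, *P2ry1*, a receptor for ADP, had levels of -6.98 and -5.25 in undifferentiated osteoblasts, -1.01 and -1.59 in differentiated osteoblasts and -2.02 and -2.07 with cabozantinib. The undifferentiated levels were the lowest, and the lower of them, in replicate 1, was not well above background. The fitted difference with differentiation was 4.81 ± 0.62 (log2, SE, n = 2 per group, adjusted p = 0.0021 by limma), and 3.84 when that array was set to the lowest level that counted as well above background on it. With a normexp background correction and an offset of 50 signal units, which compresses dim signals, it was 1.99 and not called (adjusted p = 0.16 by limma). *P2ry6*, a receptor for UDP, had levels of 1.33 and 0.26, then 3.39 and 4.01, and with cabozantinib 3.26 and 3.67. All 4 arrays of differentiated cultures lay above both undifferentiated arrays, and those with and without cabozantinib overlapped. *P2ry6* rose with differentiation by 2.90 ± 0.57 (log2, SE, adjusted p = 0.012 by limma), and it was the only receptor called with the normexp correction.

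*P2ry2*, a receptor for ATP and UTP, had levels of -0.06 and -0.91 in undifferentiated, 1.03 and 1.63 in differentiated and 0.73 and 1.13 in cabozantinib-treated osteoblasts. The groups without and with differentiation did not overlap. The difference was 1.81 ± 0.54 (log2, SE), which missed the threshold (adjusted p = 0.073 by limma) and was called when the replicate number was left out of the model (adjusted p = 0.035), where 13% of all genes were called. *P2ry4*, which also responds to UTP, was close to background on every array, with levels of -4.69 and -5.62 in undifferentiated and -5.23 and -4.65 in differentiated cells. These groups overlapped and differed by 0.21 ± 1.22 (log2, 95% interval).

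The receptors that couple to inhibitory G proteins are *P2ry12* and *P2ry13*, both receptors for ADP, and *P2ry14*, a receptor for UDP-glucose and UDP. *P2ry12* is the platelet ADP receptor and a marker of microglia, the macrophages of the brain. Its levels were -3.95 and -3.45 in undifferentiated osteoblasts, 0.35 and -0.90 in differentiated osteoblasts and 0.42 and 0.18 with cabozantinib. *P2ry13* had levels of -3.34 and -3.20, then 0.65 and -0.62, and with cabozantinib 0.76 and 0.67. Both receptors were low on the 2 undifferentiated arrays and higher on the 4 others, with replicate 2 of the differentiated cultures the lowest of these 4. With differentiation *P2ry12* rose by 3.42 ± 0.56 and *P2ry13* by 3.29 ± 0.54 (log2, SE, adjusted p of 0.0053 and 0.0054 by limma). *P2ry14* had levels of -0.57 and -1.44, then 1.12 and 1.37, and with cabozantinib 0.57 and 1.01. It rose with differentiation by 2.25 ± 0.53 (log2, SE, adjusted p = 0.028 by limma), and its groups did not overlap.

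*P2ry12* and *P2ry13* had almost the same pattern over the 6 arrays. When each gene was centred on its own mean, the root mean square difference between them was 0.13 on the log2 scale, and each was the closest to the other among 16114 named genes. This is a description over 6 arrays that share group structure. In the RefSeq annotation of GRCm38.p6 the genes for *P2ry14*, *P2ry13* and *P2ry12* lie close together inside the transcription unit of *Med12l*, a Mediator subunit, with *Gpr171*. *Med12l* was not well above background on any array. *Gpr171*, a receptor gene of the cluster, was dim, and well above background on 1 undifferentiated, both differentiated and neither cabozantinib array. It differed by -0.22 ± 1.11 (log2, 95% interval) with differentiation. *P2rx7* and *P2rx4* are likewise neighbors, as are *P2ry6* and *P2ry2*.

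The promoters of *P2ry12* and *P2ry13* are shown because these neighbors had the most similar pattern. They are RefSeq sequences of GRCm38.p6 that run from 250 bases before to 50 bases after the annotated start, on the minus strand of chromosome 3, at chr3:59262936-59263235 for *P2ry12* and chr3:59210833-59211132 for *P2ry13*. Capitals mark AGGAAG, the core bound by ETS family factors such as the macrophage factor PU.1, searched on both strands.
P2ry12: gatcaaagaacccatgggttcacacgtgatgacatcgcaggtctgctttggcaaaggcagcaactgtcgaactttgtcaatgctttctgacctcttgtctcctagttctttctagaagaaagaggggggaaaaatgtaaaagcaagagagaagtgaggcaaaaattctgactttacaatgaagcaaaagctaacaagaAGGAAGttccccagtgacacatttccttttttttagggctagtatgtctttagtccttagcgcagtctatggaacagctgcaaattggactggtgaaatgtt
P2ry13: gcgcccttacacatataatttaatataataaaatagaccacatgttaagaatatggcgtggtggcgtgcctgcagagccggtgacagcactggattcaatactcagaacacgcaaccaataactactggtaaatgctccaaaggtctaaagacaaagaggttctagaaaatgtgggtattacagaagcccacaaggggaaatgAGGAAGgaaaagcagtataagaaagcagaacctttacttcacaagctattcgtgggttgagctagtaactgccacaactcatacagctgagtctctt

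The match begins 52 bases before the start of *P2ry12* and 47 bases before that of *P2ry13*, in the same orientation as the gene. A promoter of *P2ry14* holds it 20 bases before its start. The table had 13 promoters for 8 of the 10 receptors, and 5 of these promoters, each of a different gene, held the motif, while 35.4% of all 32851 promoters of this length did. The longer PU.1 motif GAGGAAGT, which overlaps AGGAAG, was found in 1 of the 13 promoters, that of *P2rx7*, and in 3.20% of all promoters. A motif for C/EBP factors, TTGCNNAA, was found in 4 promoters of 3 genes, 2 of them overlapping promoters of *P2ry2* that share the site, and in 10.8% of all, and a motif for RUNX factors, TGTGGTT, in 0 and in 5.27% of all. A match describes these letters and is not evidence of binding.

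Among the channels, *P2rx7*, which opens at high ATP and is linked to inflammasome activation, had levels of -2.48 and -2.37 in undifferentiated, 0.20 and 0.50 in differentiated and 0.09 and -0.43 in cabozantinib-treated osteoblasts. The undifferentiated arrays lay far below the 4 others. It rose with differentiation by 2.77 ± 0.50 (log2, SE, adjusted p = 0.0084 by limma). These values are from its brightest probe, designed to transcript NM_011027. The probe for NM_001038887 differed in the same direction by 1.24 ± 0.59 (log2, SE), which was not called (adjusted p = 0.27 by limma). The probe for NM_001038845 was well above background on neither undifferentiated array and on 1 of the 2 differentiated arrays, so that it gives no firm fold (adjusted p = 0.017 by limma). *P2rx4*, an ATP channel of lysosomes and the cell surface, had levels of 4.91 and 3.72, then 5.43 and 6.17, and with cabozantinib 5.40 and 5.71. Its differentiated arrays lay above the undifferentiated ones, but the difference of 1.48 ± 0.58 (log2, SE) was not called (adjusted p = 0.17 by limma). *P2rx5* had levels of 1.06 and -0.42, then 0.96 and 1.86, and with cabozantinib 1.60 and 2.11, and its difference with differentiation was 1.09 ± 1.43 (log2, 95% interval) with overlapping groups.

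These calls depended on single cultures. The number of receptors called with differentiation was 9 without replicate 1 of the undifferentiated cultures, where 19.5% of all genes were called in either direction. It was 3 without replicate 2 of the differentiated cultures (6.08% of all genes) and 1 with the normexp correction (2.72%), against 9.35% in the model reported here. The methods' t-test, paired by replicate number, called 0 receptors after adjustment. It also called 0% of all genes, so that it could not set the receptors apart from other genes. At an unadjusted p under 0.05 with a change over 2-fold it gave 1 receptor, beside 846 of 23054 genes.

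**Figure D2:**
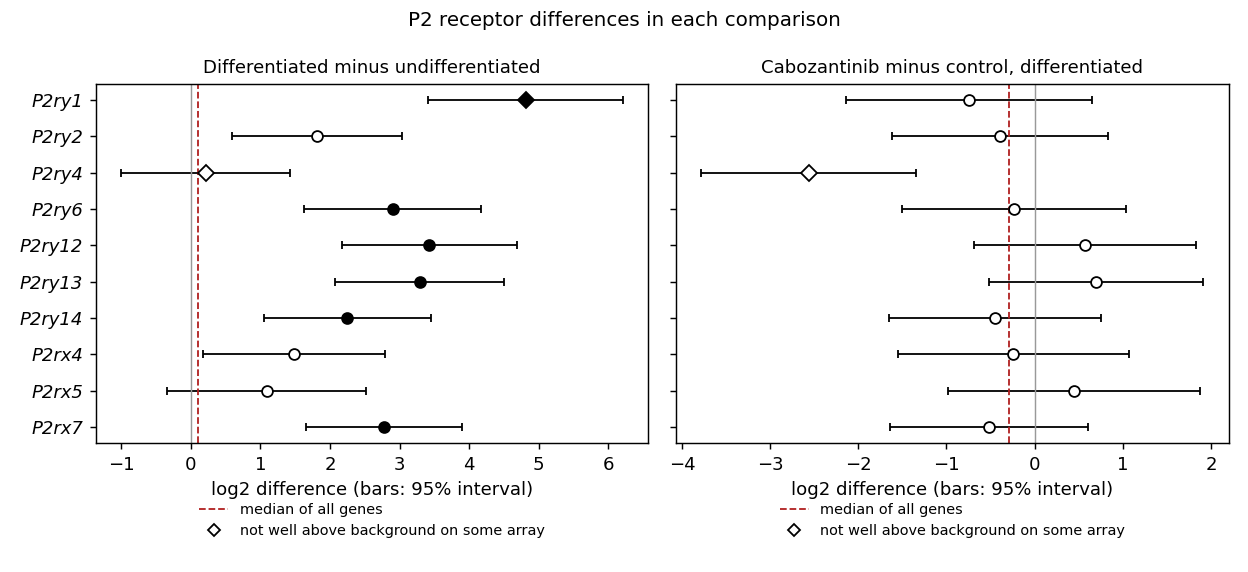
Log2 difference of each P2 receptor between differentiated and undifferentiated osteoblasts (left) and between cabozantinib-treated and control differentiated osteoblasts (right), with 95% intervals from limma, filled points where the adjusted p was under 0.05, diamonds where the probe was not well above background on some array compared, and a dashed line at the median of all genes. On the left 6 points are filled and all 10 lie above 0. On the right none is filled and the *P2ry4* diamond stands for a difference with no firm fold.

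As a list, markers of macrophages were also higher with differentiation. Of 20 macrophage markers, 19 had a probe and 16 were tested, and 9 of these rose with differentiation and none fell. Their median difference was 2.97, beside 2.84 for the 6 receptors known from macrophages and 0.10 for all genes. The complement gene *C1qc* rose by 7.17, the mannose receptor *Mrc1* by 5.30, *Adgre1*, which encodes F4/80, by 4.02, *Trem2* by 3.84 and the CSF1 receptor *Csf1r* by 2.82 (log2). The levels of the 19 markers, summed on the linear scale in units of each array's 75th percentile, were 39.4 to 69.9 on the undifferentiated arrays, 484 to 668 on the differentiated arrays and 426 to 519 with cabozantinib. Bright probes weigh most in such a sum. Some defining markers went another way: *C1qa* and *Cd163* were not well above background on any array, *Spi1*, which encodes PU.1, was so on 1 undifferentiated array only, and *Lyz2* differed by -1.29 (adjusted p = 0.56 by limma). The part of macrophages in the receptor differences was not tested. In RNA of whole cultures, more cells of a type and more RNA per cell cannot be told apart.

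**Figure D3:**
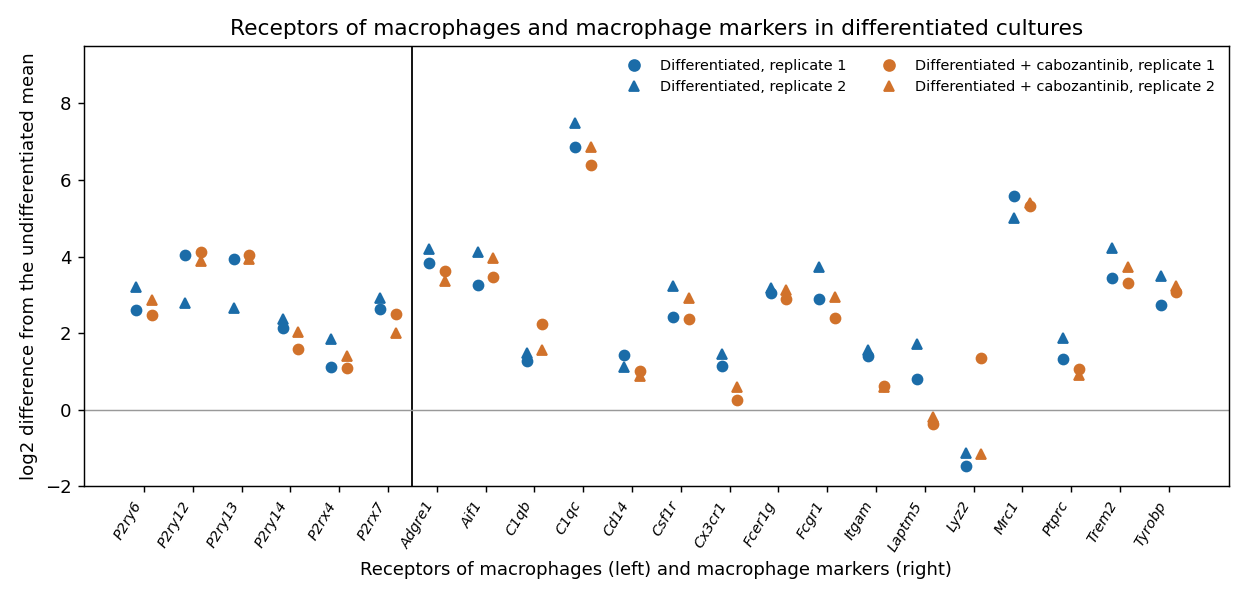
Log2 difference of each differentiated (blue) and cabozantinib-treated (orange) array from the mean of the undifferentiated arrays, for the 6 P2 receptors known from macrophages (left of the line) and the 16 macrophage markers tested (right), with circles for replicate 1 and triangles for replicate 2. All points of the 6 receptors lie above 0, *P2ry12* and *P2ry13* have their lowest points on replicate 2 of the differentiated cultures, and *Lyz2* lies below 0 on 3 of its 4 arrays.

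The lists of other cell types differed in direction. Of the 7 osteoclast markers tested 3 were called higher with differentiation, against 5.02% of all genes, and none lower, against 4.33%. The collagen genes *Col1a1* and *Col1a2* and *Sparc* had levels from 6.57 to 8.11 on all 6 arrays. Of 9 osteoblast markers tested, *Phex*, *Dmp1* and *Ibsp* rose and *Spp1* fell with differentiation, with a median of 0.23. Of 7 osteoclast markers tested, *Atp6v0d2*, *Acp5* and *Dcstamp* rose, by 5.26, 3.33 and 2.30 (log2), with a median of 1.48 over the list, while *Calcr* was not well above background on any array. The summed level of the 8 osteoclast markers was 31.2 to 51.5 on the undifferentiated, 120 to 172 on the differentiated and 108 to 129 on the cabozantinib arrays. Of 5 neutrophil markers tested, *S100a8* and *S100a9* fell (median -1.09), and of 4 platelet markers *Ppbp* fell (median -0.09), while *P2ry12* rose. Of 5 endothelial markers, 2 were tested and *Cdh5* rose (median 1.34). With cabozantinib limma called none of these markers, beside 1 of all 23054 genes, so that this does not set them apart from other genes.

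The second comparison asked which receptors differ when cabozantinib is present during differentiation. It shares the differentiated arrays with the comparison above. None of the 10 receptors was called by limma, and the methods' t-test called 0, beside 2 of all genes. By limma 1 receptor had an unadjusted p under 0.05, as did 5342 of the 23054 genes. After adjustment limma called 0.00434% of all genes, which is 1 gene. The adjusted p values of this comparison pile up just above the threshold, and 999 genes had an adjusted p under 0.06. Of the 10 receptors, 3 differed upward and 7 downward, and the median was -0.32 beside -0.29 for all genes. The cabozantinib arrays lay above both control arrays for 1 receptor, *P2ry13*, and below both for 4 (*P2ry1*, *P2ry4*, *P2ry14* and *P2rx7*), against 13.3% and 45.1% of all genes.

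The receptor with the unadjusted p under 0.05 was *P2ry4*. Its signal was 32.4 and 28.7 units in control and 8.92 and 5.21 units in cabozantinib-treated differentiated osteoblasts, or -5.23 and -4.65 against -7.29 and -7.71 as levels. Neither cabozantinib array was well above background, so that no firm fold can be given, and the difference was not called (adjusted p = 0.053 by limma). With the cabozantinib arrays set to the lowest level that counted as well above background on them, *P2ry4* was 1.55-fold lower with cabozantinib. This is not a strict minimum, since some probes that were not well above background, such as that of *Laptm5* on replicate 2, lay above that level. The call was made without the replicate number in the model (adjusted p = 0.025), where 12.1% of all genes were called. Dim probes as a group were lower on the cabozantinib arrays. With no filter on signal, 79.8% of the 3592 probes whose mean level over the 6 arrays lay within 0.5 of that of *P2ry4* were lower with cabozantinib, with a median of -1.21, against 67.8% and -0.24 over all probes. With the normexp correction the *P2ry4* difference was -0.72.

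For the other 9 receptors the differences were between -0.75 and 0.70, and every 95% interval held 0. *P2ry13* differed by 0.70 ± 1.21 and *P2ry12* by 0.57 ± 1.26 (log2, 95% interval), which is 0.99 and 0.86 above the median gene. These values rest on replicate 2 of the differentiated cultures, without which they were 0.05 and -0.12. *P2ry1* differed by -0.75 ± 1.40, *P2rx7* by -0.52 ± 1.12, *P2ry14* by -0.45 ± 1.20 and *P2ry2* by -0.40 ± 1.22. *P2ry6* and *P2rx4* were close to the median gene, at -0.23 ± 1.27 and -0.25 ± 1.31, and *P2rx5* differed by 0.44 ± 1.43. The intervals reached 1.12 to 1.43 to either side. The macrophage markers differed by a median of -0.33, with 0 of 16 called by limma.

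Set against undifferentiated osteoblasts, the cabozantinib-treated cultures gave 5 receptors higher and 1 lower, where 4.47% of all genes rose and 8.48% fell. Groups did not overlap for 9 receptors higher and 1 lower, against 19.5% and 44.5% of all genes. The 5 were *P2ry12* (3.99 ± 0.56), *P2ry13* (3.99 ± 0.54), *P2ry6* (2.67 ± 0.57), *P2rx7* (2.25 ± 0.50, log2 and SE) and *P2ry1*. The *P2ry1* difference was 4.06 ± 0.62 as fitted, 3.10 with the dim undifferentiated array at its lowest detectable level and 1.26 with the normexp correction, which did not call it (adjusted p = 0.58 by limma). *P2ry14*, called between control differentiated and undifferentiated cultures, differed here by 1.80 ± 0.53 (adjusted p = 0.054 by limma). The receptor that fell was *P2ry4* (adjusted p = 0.025 by limma), which has no firm fold, since it was well above background on 1 undifferentiated and on neither cabozantinib array. Neither quantile normalization (-1.47, adjusted p = 0.11 by limma) nor the normexp correction (-0.83, adjusted p = 0.63 by limma) called it. The median over the receptors was 2.02, beside -0.38 for all genes.

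Ordered by group mean, undifferentiated cultures were lowest for 9 receptors. Control and cabozantinib-treated differentiated cultures were not told apart beyond their spread by limma for any of these 9, and for *P2ry2*, *P2rx4* and *P2rx5* no pair of groups was. For *P2ry4* the cabozantinib-treated cultures were lowest, and undifferentiated and control differentiated cultures overlapped.

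Genes of the rest of the nucleotide pathway were read from lists written by hand. With differentiation 3 of 10 ectonucleotidases rose, with *Entpd1*, the ectonucleotidase CD39 that degrades ATP and ADP, by 5.93 ± 0.48, *Entpd2*, which acts mainly on ATP, by 3.20 ± 0.58, and *Enpp2*, autotaxin, which is best known for making lysophosphatidic acid, by 3.18 ± 0.57 (log2, SE). *Entpd1* had levels of -4.96 and -4.85 in undifferentiated, 0.92 and 1.12 in differentiated and 0.88 and 1.18 in cabozantinib-treated osteoblasts. The lower undifferentiated level was not well above background, and the control and cabozantinib levels overlapped. *Alpl*, the tissue-nonspecific alkaline phosphatase of osteoblasts, differed by 0.48 and *Nt5e*, which makes adenosine from AMP, by -1.03, and neither was called. The median of the 10 was 0.64.

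Of the 7 adenosine genes 2 rose, the A1 receptor *Adora1* by 3.55, from a level not well above background on 1 undifferentiated array, and adenosine deaminase *Ada* by 2.45 (log2), and the median was 0.45. Of 4 genes of nucleotide release tested, *Slc17a9*, which loads ATP into vesicles, rose by 1.89 (median of the 4 at -0.04), while the channel gene *Panx1* differed by 1.93 (adjusted p = 0.080 by limma) and *Gja1*, connexin 43, by -2.12 (adjusted p = 0.18 by limma). Of the 5 inflammasome genes 2 rose, *Casp1* by 4.31 and *Il18* by 2.09, while *Nlrp3* differed by -0.06, and their median was 1.68. Of 11 tested genes of G protein and phospholipase signaling, none rose and *Gna11* fell by 2.05, and the median was 0.25. Of the 5 other P2 receptors 3 were tested, and *P2rx2* rose by 2.00 (median of the 3 at 0.08). With cabozantinib limma called none of these genes. *Enpp2* differed by -2.09 (adjusted p = 0.074 by limma) and the osteoblast and chondrocyte channel gene *Panx3* by 2.03 (adjusted p = 0.099 by limma). The phospholipase C gene *Plcb2* differed by -1.78 (adjusted p = 0.072 by limma) and *Nlrp3* by -1.68 (adjusted p = 0.092 by limma). An adjusted p under 0.1 was reached by 2499 of the 23054 genes. *Entpd8* was well above background on neither cabozantinib array and has no firm fold (adjusted p = 0.053 by limma). It was 2.02-fold lower with these arrays set to the lowest level that counted as well above background.

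**Figure D4:**
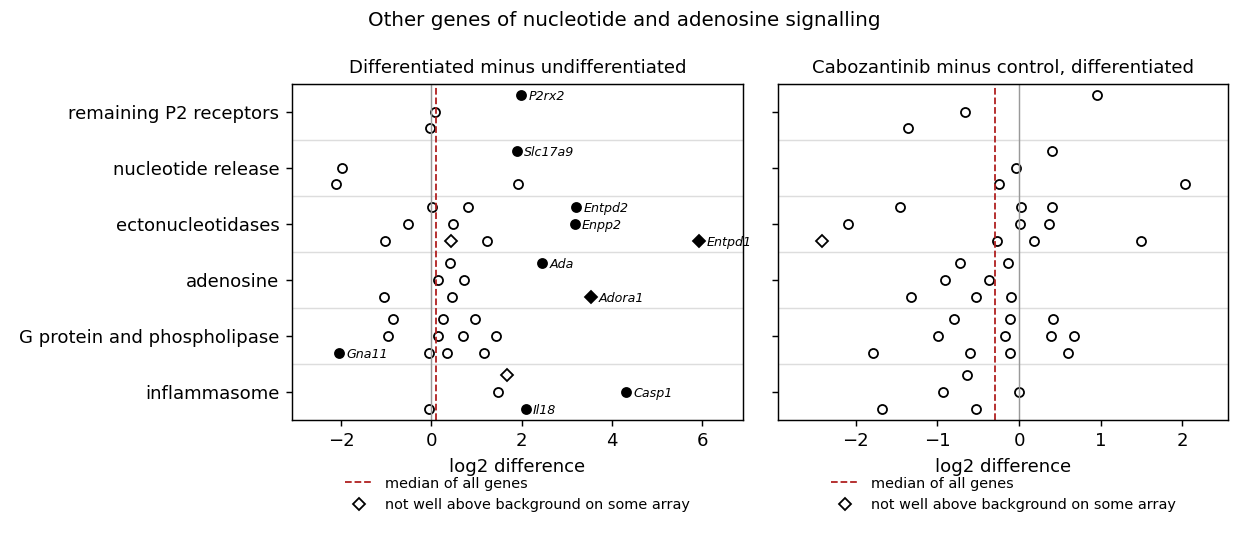
Log2 difference of each tested gene in 6 lists of nucleotide and adenosine signaling (rows), between differentiated and undifferentiated osteoblasts (left) and between cabozantinib-treated and control differentiated osteoblasts (right), with filled and named points where the adjusted p was under 0.05, diamonds where the probe was not well above background on some array compared, and a dashed line at the median of all genes. On the left 10 points are filled, 9 of them above 0, and on the right none is.

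The genes whose centred pattern was closest to each receptor were found by the smallest root mean square difference over the 6 arrays. For *P2ry1* it was *Rgs18*, a regulator of G protein signaling (0.23), and for *P2ry12* after *P2ry13* it was *Cd84* (0.16). For *P2ry13* after *P2ry12* it was *Fcrls* (0.17), a marker of microglia. For *P2ry6* it was *Slc37a2* (0.05), for *P2ry14* it was *Plcg2* (0.07), for *P2rx4* it was *Fuca2* (0.06) and for *P2ry2* it was *Hsd3b7* (0.05). The closest were *Vstm2b* for *P2rx7* (0.17), *Adamts2* for *P2rx5* (0.09) and *C920006O11Rik* for *P2ry4* (0.07).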

How the data were processed

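The 6 arrays were scanned and quantified by the authors with Feature Extraction 11.0.1.1, and the deposited intensities are background-subtracted signals per spot on a linear scale. The deposited value table holds log2 values of 30439 probes, normalized by the authors in steps not given in the sources used here, and was used as an alternative. Control and outlier spots were left out, spots of a probe were averaged, and log2 signals were centred on the 75th percentile of each array. Unversioned RefSeq accessions gave a gene to 69.1% of the probes (GRCm38.p6 names). Probes well above background on at least 2 arrays (27192) were tested with limma 3.58.1 in R 4.3.3, with condition and replicate number as terms, because the statistics of the study name a paired test. P values were adjusted by Benjamini-Hochberg over probes, and a gene was read at its brightest probe. The design named normexp on mean signals, but median signals were used, since these are in the files. Limits come from the number of arrays, and 2 per group leave 2 residual degrees of freedom.

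The receptors, marker lists and pathway lists were chosen with earlier results of these data known, and the motifs after the values were seen. The genes named are all 10 receptors, pathway genes that were called, some that stand at an end of their list, and the nearest patterns. *Alpl*, *Nt5e*, *Nlrp3*, *Panx1*, *Panx3*, *Plcb2* and the neighboring genes were named after their values were seen. The methods were tested on simulated data. Python 3.11.15, pandas 2.3.3 and matplotlib 3.10.9 were used for tables and figures.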

Additional observations from a re-analysis of the deposited data

How the results depend on the processing

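The alternatives were quantile normalization, normexp, the authors' values, 2 other filters on dim probes, models without the replicate number or with 4 arrays, a variance trend, the mean of a gene's probes, the methods' t-test and each array left out. Exchanged numbers and the other *P2rx7* probes were added after the data were seen. With differentiation the count of 6 receptors (9.35% of all genes) became 1 with normexp (2.72%) and 0 with the methods' t-test after adjustment (0%). At the 2-fold and unadjusted threshold the t-test gave 1 receptor, beside 846 of 23054 genes. Against undifferentiated cells, the cabozantinib count of 6 (12.9% of all genes) became 3 with normexp (1.83%), the authors' values (4.02%) or no filter (3.39%). It was 0 with the t-test (0%), and 1 at the threshold of the t-test, beside 1268 of 23054 genes. For cabozantinib against control, the count of 0 (0.00434% of all genes) became 1, *P2ry4*, in some settings. These included no replicate block (12.1% of all genes called), only the 4 arrays compared (24.6%) and averaging over probes (3.94%). Exchanged undifferentiated numbers and some fits with an array left out were also among them. Over all settings the *P2ry4* difference ran from -3.19 to -0.72 (log2).

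Same-numbered arrays deviated with correlations of -0.52, 0.27 and -0.51, so that the replicate block rests on shared numbers and not on shown pairs. Without the block 7 receptors were called with differentiation, with 13% of all genes. With the undifferentiated numbers exchanged 9 were called (25.5% of all genes), 1 for cabozantinib against control (30.2%) and 10 for cabozantinib against undifferentiated (44.2%).

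Directions turned for differences close to 0. With differentiation *P2ry4* was -0.11 with normexp and -0.41 to 0.84 with an array left out (-0.29 without undifferentiated replicate 2), and *P2rx5* was -0.0034 to 2.18 (lowest without undifferentiated replicate 2). With cabozantinib, leaving out an array gave -0.81 to 0.020 for *P2ry2*, -0.71 to 0.24 for *P2ry6*, -0.12 to 1.26 for *P2ry12*, -0.83 to 0.34 for *P2rx4* and -0.25 to 1.13 for *P2rx5*. The turned values came without differentiated replicate 2, except for *P2rx5* (without differentiated replicate 1), and *P2ry6* (0.08) and *P2rx4* (0.03) also turned without cabozantinib replicate 1. *P2rx7* was 0.51 at its probe for NM_001038845. Other receptor differences kept their direction in these settings.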

Other observations

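The replicate cultures of the differentiated group split the receptors. Replicate 2 minus replicate 1 was -1.27 for *P2ry13*, -1.25 for *P2ry12* and -0.58 for *P2ry1* (log2), while it was 0.90 for *P2rx5*, 0.74 for *P2rx4*, 0.62 for *P2ry6* and 0.60 for *P2ry2*. Over all genes the median was 0.31 and the SD 0.72. The undifferentiated replicates split the same receptors with the opposite sign, at 1.73 for *P2ry1*, 0.50 for *P2ry12* and 0.14 for *P2ry13* against -1.48 for *P2rx5*, -1.18 for *P2rx4*, -1.07 for *P2ry6* and -0.86 for *P2ry2*, where the median over all genes was -0.51 and the SD 0.85. The macrophage markers did not fall together in replicate 2, with *Csf1r* at 0.80, *Trem2* at 0.78 and *Mrc1* at -0.58. With cabozantinib the replicates differed by -0.24 for *P2ry12* and -0.09 for *P2ry13*. With 1 culture on each side these differences were not tested.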
